A study of Ovis aries with 8 samples.

Results

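The lung epithelium is a barrier, and junction proteins and integrins join its cells to each other and to the matrix beneath them. The genes described here also include some known from leukocytes or platelets, and CTNNBL1 and CIB1, which are neither junction proteins nor integrins. They were found on a sheep array by the words of the probe descriptions, which had to name a type I or II keratin, a cytokeratin, claudin, occludin, tight junction, cadherin, catenin, desmosomal protein, gap junction, connexin or integrin. Wool keratin-associated proteins, keratinocyte growth factor and integrin alpha M were left out. Of 15008 probes, the 25 described here were found by this rule, and they stood for 15 genes of the 867 that could be named: 2 keratins, 3 tight junction genes, 1 gap junction gene, 1 gene whose description holds the word catenin, 7 integrin subunits and 1 integrin-binding protein. The rule found no cadherin and no desmosomal protein. It used no measured value.

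The samples were lungs of 8 sheep fetuses at about 130 days of gestation, where term is 147 days. In each of 4 sets of twins, an infusion of 0.2 mg aldosterone, given for 48 hours, went to 1 fetus and vehicle alone to the other, and infusions began 5 days after surgery. Aldosterone is the adrenal steroid that acts through the mineralocorticoid receptor. Both groups therefore shared the surgery and the twin pregnancy, and they differed in the infusion. The comparison asks whether these genes differ in level between the lungs of treated fetuses and those of their vehicle-infused twins. The main test did not use the twin pairs. A fit with the replicate number as a block was an alternative. Lung was taken whole, so that fewer cells of a type and less RNA per cell cannot be told apart in any value below.

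Tight junctions seal the space between neighbouring epithelial cells. Claudins and occludin span the membrane there, and the zonula occludens proteins, among them TJP1 and TJP3, tie them to the actin skeleton from inside the cell. Gap junctions are channels of connexins that pass ions and small molecules from cell to cell. Keratins are the intermediate filaments of epithelial cells, with KRT19 found in simple epithelia and KRT15 best known from basal cells. Integrins are pairs of an alpha and a beta subunit that bind the matrix or other cells. The fetal lung secretes liquid into its airspaces and turns to absorbing it around birth, and the tightness of its epithelium bears on both.

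Each probe was 60 bases long, and 8 of the genes had more than 1 probe. The probe sequences below come from the deposited scanner files. Those of TJP1, TJP3, GJB2 and ITGA4 are shown because probes of the same gene share bases. The array design lists every probe as unmapped, so no genome position is given. Capitals mark the bases that both probes of a pair share, and for TJP3 this was 59 bases with a shift of 1 base.
TJP3 probe A_70_P026071: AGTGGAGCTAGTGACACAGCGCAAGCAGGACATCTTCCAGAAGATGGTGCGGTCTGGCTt
TJP3 probe A_70_P026072: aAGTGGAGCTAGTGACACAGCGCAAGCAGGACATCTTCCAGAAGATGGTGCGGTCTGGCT
The TJP1 probes also shared 59 bases with a shift of 1 base.
TJP1 probe A_70_P026081: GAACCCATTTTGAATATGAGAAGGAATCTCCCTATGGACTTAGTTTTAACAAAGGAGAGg
TJP1 probe A_70_P026082: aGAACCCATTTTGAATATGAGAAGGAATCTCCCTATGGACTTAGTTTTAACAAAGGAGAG
The ITGA4 pair shared 40 bases with a shift of 20 bases. Of the 4 GJB2 probes found by description, 2 that share 26 bases with each other are given after the ITGA4 pair.
ITGA4 probe A_70_P026031: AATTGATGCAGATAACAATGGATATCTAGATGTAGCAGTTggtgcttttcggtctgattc
ITGA4 probe A_70_P026032: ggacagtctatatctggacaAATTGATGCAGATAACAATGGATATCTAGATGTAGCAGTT
GJB2 probe A_70_P016856: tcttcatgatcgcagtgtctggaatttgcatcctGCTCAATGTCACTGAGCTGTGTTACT
GJB2 probe A_70_P030086: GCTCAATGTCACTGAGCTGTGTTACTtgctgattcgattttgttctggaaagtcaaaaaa
KRT15 had a single probe, shown because this gene varied most between lungs.
KRT15 probe A_70_P058276: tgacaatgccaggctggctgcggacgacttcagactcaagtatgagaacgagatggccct

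Some members are relatives, and the probes of the integrin beta subunits ITGB1 and ITGB2 could be laid over each other. They overlapped over 48 bases, of which 33 (68.8%) were identical and are in capitals. The lower-case letters inside the overlap are the bases that differ.
ITGB1 probe A_70_P026041: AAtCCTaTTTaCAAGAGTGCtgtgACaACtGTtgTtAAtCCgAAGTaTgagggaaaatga
ITGB2 probe A_70_P030171: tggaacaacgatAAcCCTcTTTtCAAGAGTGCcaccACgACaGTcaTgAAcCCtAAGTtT
Whether RNA of one of the pair also bound the probe of the other was not tested.

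All 8 arrays lay on 1 slide, with replicates 1 and 2 of both groups in one row and replicates 3 and 4 in the other. Between 76.49% and 85.41% of an array's spots rose well above background, and arrays correlated at 0.966 to 0.989 across probes. With 4 arrays in a group, precision is limited by their number. Levels are given as log2 of the processed signal relative to the 75th percentile of the same array, so 0 is a bright probe and a negative value is a dimmer one, and they are compared between lungs only within a probe. Markers of the labelled tissue differed in level. The surfactant gene SFTPC was bright, between 7.97 and 8.67 in all lungs. Of the 4 alveolar type I markers on the list 2 were measured, CAV1 at 1.95 to 2.69 and the dimmer AQP5 at -1.18 to 0.24. Of the airway markers SCGB3A2 was bright and PIGR dim, with values given below. Over the 4 alveolar type II markers, all of which were measured, the mean level was 5.84 to 6.46 in control and 5.54 to 6.37 in aldosterone lungs. Of the 12168 probes kept because they were well above background on at least 4 arrays, 21 were members, of 12 genes. The other 4 member probes stood for ITGAL, ITGB3 and CLDN17.

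None of the 21 member probes passed the test between groups. In limma, 0 of the 12168 probes had an adjusted p under 0.05 (0%), and the adjusted p of every member was 1. At an unadjusted p under 0.05 the array held 228 probes (1.87%), of which 155 were higher with aldosterone (1.27%) and 73 lower (0.6%). Among the 21 member probes 0 were on the higher side and 0 on the lower side. With the replicate number as a block the members' counts were the same, while those over all probes were 539 (4.43%), of which 2.82% of probes were higher and 1.61% lower. The means of 10 member probes were higher and those of 11 were lower after aldosterone, beside 51.5% higher and 48.5% lower over all probes. Their median log2 difference was -0.028, against 0.0073 over all probes, and the differences ran from -0.33 to 0.23. The median size of the difference regardless of sign was 0.14 for members and 0.12 for all probes. The groups overlapped for every member probe, while 1.31% of all probes had groups that did not overlap. A higher value in all 4 same-numbered pairs was found for 0 members and 7.67% of all probes, and a lower value in all 4 for 0 members and 5.64% of all probes.

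**Figure D1:**
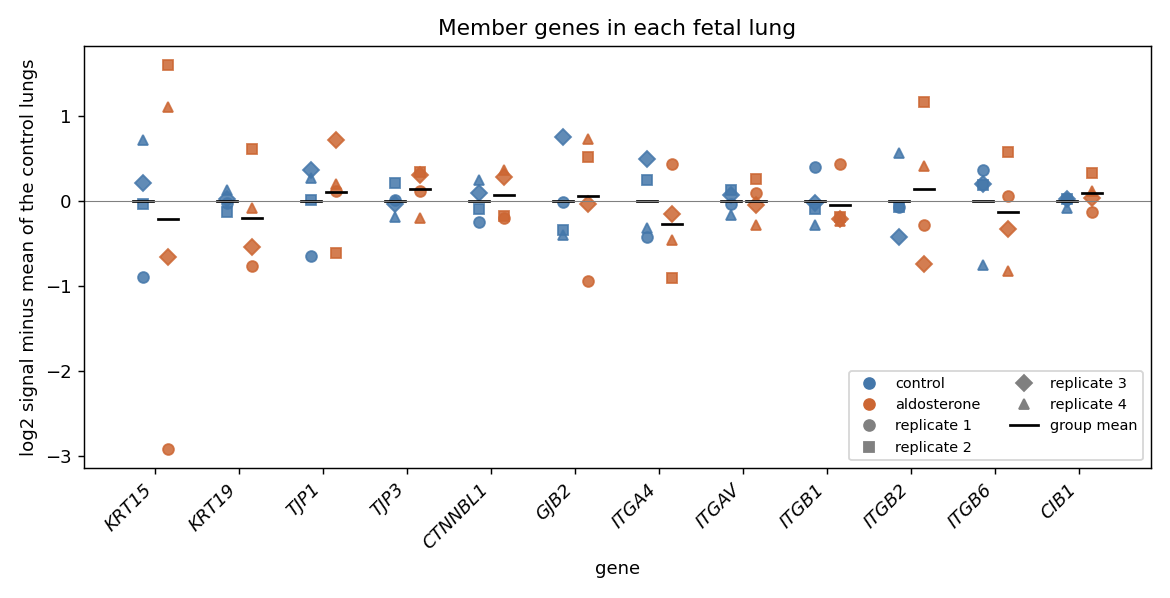
Log2 signal of each of the 12 tested member genes (x axis) in each lung, less the mean of the 4 control lungs (y axis, log2). Blue points are control and orange points aldosterone lungs, shapes are replicate numbers and bars are group means. The points of both groups overlap for every gene, and KRT15 runs from -5.86 to -1.34 in signal before the control mean is taken off.

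The keratins had lower means after aldosterone, but neither differed beyond the spread between lungs. KRT15, a type I keratin of basal epithelial cells, had control levels of -3.83, -2.98, -2.73 and -2.23 in replicates 1 to 4. Its aldosterone levels were -5.86, -1.34, -3.60 and -1.83. Both the dimmest and the brightest of the 8 lungs were thus aldosterone lungs, and all control values lay between them. The difference was -0.22 ± 0.89 (limma SE, n = 4 per group), and its 95% interval of -2.23 to 1.80 leaves room for large changes in either direction. From the lowest to the highest lung KRT15 spanned 4.52 log2 units, or 22.9-fold, and only 0.6% of all probes spanned more.

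KRT19, the smallest type I keratin and a marker of simple epithelia, was even in the control lungs, at -4.75, -4.87, -4.71 and -4.61. In the aldosterone lungs it was -5.50, -4.12, -5.27 and -4.82. Of the treated lungs replicates 1 and 3 lay below the lowest control, replicate 4 lay among the controls and replicate 2 lay above the highest. The difference was -0.19 ± 0.28, with a 95% interval of -0.82 to 0.43. Leaving out 1 lung moved it from -0.0035, without aldosterone replicate 1, to -0.46, without aldosterone replicate 2, where alone limma's unadjusted p was under 0.05. It was -0.0015 within the first slide row and -0.022 with normexp and quantile normalization. The same lung, aldosterone replicate 2, held the highest KRT15 value, and both keratins were lowest in aldosterone replicate 1. The airway markers measured beside them were 2 of a list of 4, SCGB3A2 and PIGR. They did not move together: PIGR was highest in aldosterone replicate 2, at -2.93 against -6.34 to -4.91 in control and -6.30 to -5.02 in the other treated lungs. SCGB3A2 was 4.89 in that lung, within its range of 4.26 to 6.11 in control lungs, and lowest in aldosterone replicates 1 and 3, at 3.07 and 3.13. Over both genes the mean level was -1.04 to 0.24 in control and -1.59 to 0.98 in aldosterone lungs. Their part in the keratin values was not tested.

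Probes for keratins and keratin-associated proteins of wool and hair, which are not members, were mostly near background in these lungs. Of 10 such probes, 6 were not well above background on any array and 3 were bright enough to test. Those 3 differed between groups by -0.36 to 0.074, with 1 higher and 2 lower.

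Of the tight junction genes TJP1 and TJP3 were tested, and for neither did the 2 probes of the gene agree on a direction. TJP1, or zonula occludens 1, was read by the 2 probes that differ by a shift of 1 base. The brighter probe gave -6.13, -5.46, -5.10 and -5.20 in control lungs and -5.35, -6.09, -4.76 and -5.28 in aldosterone lungs. Its difference was 0.10 ± 0.31 and that of the other probe was -0.25 ± 0.26, so no direction can be given for TJP1. The probes were furthest apart in aldosterone replicate 3, by -0.72, where their median distance was 0.016.

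TJP3, or zonula occludens 3, is found mainly in epithelia. Its brighter probe read -3.29, -3.09, -3.33 and -3.49 in control lungs, and -3.17, -2.96, -2.99 and -3.49 in aldosterone lungs. These groups lay almost on top of each other, with a difference of 0.14 ± 0.16 and a 95% interval of -0.23 to 0.51. The second TJP3 probe gave -0.27 ± 0.33. In aldosterone replicate 1 the second probe differed from the first by -1.47, while in the other 7 lungs the distance deviated from its median by at most 0.12. No outlier flag was set there, and without that lung the difference of the means on the second probe was 0.073. CLDN17, the only claudin found by description, stood well above background on only 3 arrays (1 control, 2 aldosterone) and was not tested. Its values ran from -7.05 to -6.22 in control and from -7.03 to -6.35 in aldosterone lungs.

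GJB2, or connexin 26, forms gap junction channels in many epithelia. The brightest of the 4 probes found by description gave -4.08, -4.42, -3.31 and -4.47 in control lungs and -5.01, -3.55, -4.11 and -3.34 in aldosterone lungs. Replicates 2 and 4 were higher with aldosterone and replicates 1 and 3 lower, by 0.79 to 1.12 log2 units each way. These changes cancelled in the mean, which differed by 0.064 ± 0.39 with a 95% interval of -0.82 to 0.95. The other 3 member probes of GJB2 showed the same crossing of pairs and gave 0.031 ± 0.28, 0.21 ± 0.34 and -0.028 ± 0.32. A further GJB2 probe, found by gene name alone and so outside the rule, read -1.23, -1.09, -0.18 and -1.85 in control lungs and -1.61, -0.88, -1.74 and -0.94 in aldosterone lungs. It had a higher mean signal than the other 4 and would have stood for the gene had the rule found it. Its difference was -0.21 ± 0.35, so the sign for GJB2 depends on the probe.

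The word catenin brought in CTNNBL1, beta-catenin-like protein 1. Despite its name this is a nuclear protein associated with the spliceosome and not a part of adherens junctions, so the list holds no junctional catenin. CTNNBL1 was at 1.83, 1.98, 2.18 and 2.33 in control lungs and at 1.88, 1.91, 2.37 and 2.44 in aldosterone lungs. Same-numbered lungs were close to each other, and the difference was 0.070 ± 0.19 with a 95% interval of -0.35 to 0.49.

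Of the 7 integrin subunits 5 were tested, and 2 had higher and 3 lower means after aldosterone. ITGB1, the beta subunit shared by most matrix-binding integrins, gave 2.26, 1.76, 1.84 and 1.58 in control lungs. With aldosterone it gave 2.29, 1.66, 1.64 and 1.62. In both groups replicate 1 was the highest, and the other lungs lay close together. The difference was -0.051 ± 0.21, with a standard error of 0.11 when the replicate number was a block, and its 95% interval under that block was -0.32 to 0.22.

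ITGAV, the alpha subunit that pairs with several beta subunits to bind vitronectin and to activate latent TGF-beta, was among the steadiest members. It read -1.45, -1.28, -1.34 and -1.58 in control lungs and -1.32, -1.15, -1.46 and -1.70 in aldosterone lungs. The group means differed by 0.0040 ± 0.15, with a 95% interval of -0.34 to 0.35, and the second probe, which shares no run of 15 or more bases with the first, gave -0.095 ± 0.15. ITGB6, the epithelial partner of ITGAV, read -2.61, -2.79, -2.77 and -3.73 in control lungs and -2.92, -2.40, -3.31 and -3.80 in aldosterone lungs. Replicate 4 was the lowest of both groups. Its difference was -0.13 ± 0.34, and that of the dimmer second probe was -0.20 ± 0.39.

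ITGA4, the alpha-4 subunit that leukocytes use to bind VCAM1, had a lower mean after aldosterone, within the spread between lungs. Control lungs gave -3.66, -2.99, -2.74 and -3.55 and aldosterone lungs -2.79, -4.14, -3.39 and -3.69. In replicates 2, 3 and 4 the treated lung was lower, and in replicate 1 it was higher by 0.86. The difference was -0.27 ± 0.31, with limma's unadjusted p at 0.413 and adjusted p at 1, and with a 95% interval of -0.98 to 0.44. Leaving out 1 lung gave -0.51 without aldosterone replicate 1 to -0.057 without aldosterone replicate 2. The overlapping second probe gave -0.33 ± 0.35.

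ITGB2, the beta subunit of the leukocyte integrins, read -0.26, -0.26, -0.62 and 0.38 in control lungs and -0.48, 0.98, -0.93 and 0.23 in aldosterone lungs. Aldosterone replicate 2 was the highest, and in the other 3 pairs the treated lung was the lower one. The difference was 0.14 ± 0.40, and it was -0.20 without aldosterone replicate 2. The second ITGB2 probe shares no run of 15 or more bases with the first, though a shorter run at their ends is the same. It tracked the first with an SD of 0.087 for the distance between them and gave 0.23 ± 0.39. Of the 6 other leukocyte markers on the list, CD14, CYBB and CD3E were tested and CD4 was not well above background on any array. Their mean level was -2.75 to -2.46 in control and -2.70 to -1.85 in aldosterone lungs, and highest in aldosterone replicate 2. Of the 3 genes only CYBB was itself highest there, at -3.92, while CD14 was highest in aldosterone replicate 4 (-1.32, against -1.36 in replicate 2) and CD3E in control replicate 1. Their part in the ITGB2 value was not tested. ITGAL, an alpha partner of ITGB2 on leukocytes, was not well above background on any array with one probe, and only on 1 aldosterone array with the other. ITGB3, known from platelets, was not well above background on any array, at -7.37 to -6.64 in control and -7.26 to -6.94 in aldosterone lungs. The platelet markers of the list had no probe.

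CIB1 entered by its description as a calcium- and integrin-binding protein. It binds the tail of an integrin alpha subunit inside the cell and is no integrin itself. Its control values of 2.21, 2.22, 2.22 and 2.11 were the most even of any member gene, and its aldosterone values were 2.06, 2.52, 2.23 and 2.31. The treated lungs lay on both sides of the controls. The difference was 0.090 ± 0.14, with a 95% interval of -0.22 to 0.40.

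**Figure D2:**
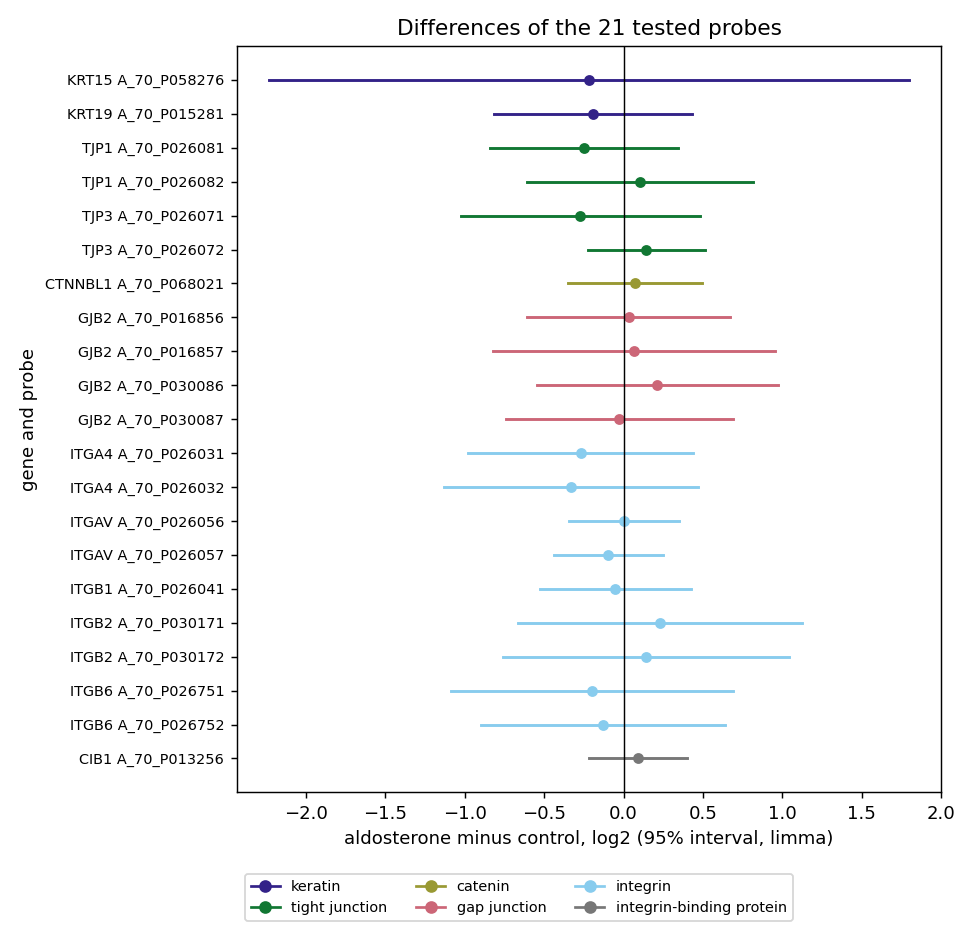
Difference between aldosterone and control lungs on the log2 scale (x axis) for each of the 21 tested member probes (y axis), with limma's 95% interval, coloured by family. All 21 intervals hold 0, and the widest, that of KRT15, runs from -2.23 to 1.80.

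How much the members vary between lungs without aldosterone was read from the control lungs. The median SD over the 4 control lungs was 0.41 for the tested member probes and 0.26 for all tested probes. Genes with several probes count more than once in the first value, GJB2 with 4 probes. An SD between lungs also holds the error of the reading and not only differences between fetuses. The 2 medians therefore do not show that these genes vary more from fetus to fetus. The members with the largest control SD were KRT15 at 0.67, GJB2 at 0.53 and ITGB6 at 0.51, and 7.4%, 13.4% and 14.8% of all probes had a larger one. The smallest control SDs were those of CIB1 at 0.055, KRT19 at 0.11 and ITGAV at 0.13, with 98.5%, 91.3% and 86.5% of all probes above them. In the treated lungs the SD of KRT19 was 0.61 and that of KRT15 was 2.04. KRT19 was named for its small control SD, and that choice alone makes a larger SD in the other group likely. All 12 member genes had a larger SD in the treated than in the control lungs. The share over all probes was not computed, so nothing particular to the keratins or members can be read from this. Aldosterone replicate 2 held the highest of the 8 values for 7 of the 12 member genes, KRT15, KRT19, TJP3, ITGAV, ITGB2, ITGB6 and CIB1, and for 12.5% of all probes.

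**Figure D3:**
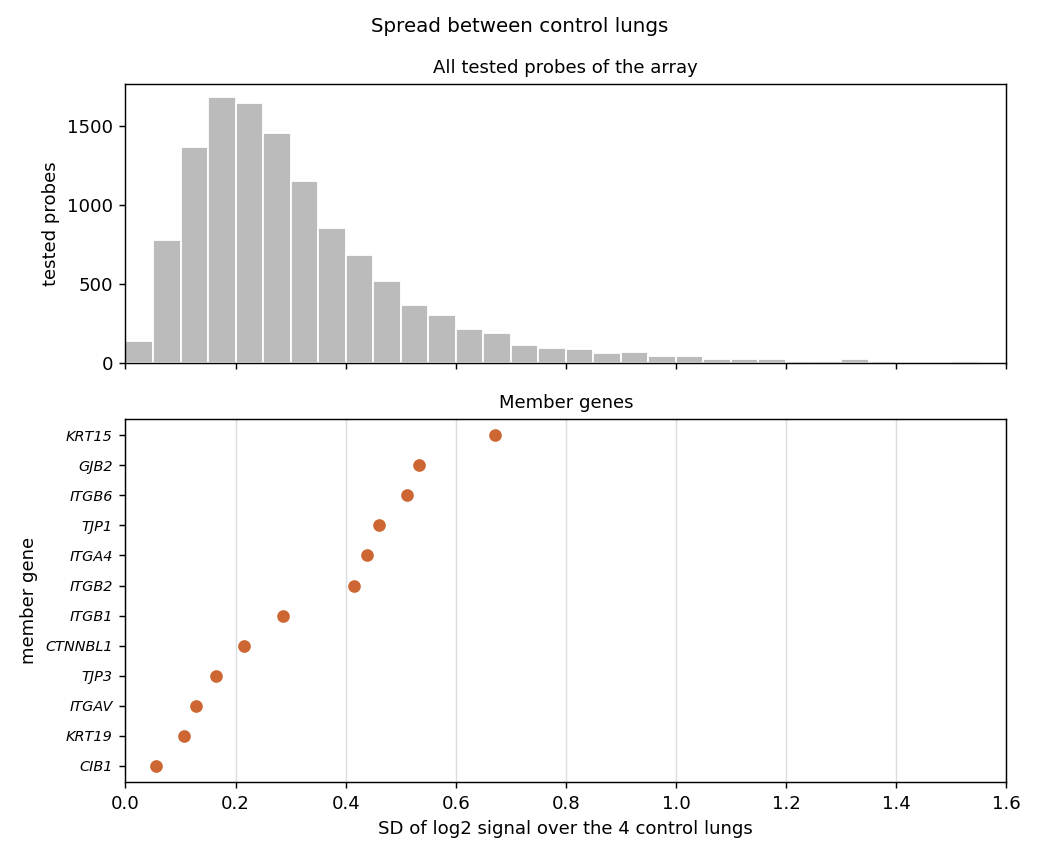
The SD of log2 signal over the 4 control lungs (x axis), as a count of all tested probes (upper panel) and for each member gene (lower panel, 1 point per gene). Member genes spread from 0.055 for CIB1 to 0.67 for KRT15, and most probes of the array lie below 0.4.

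Where a gene had several probes, their agreement showed how far readings of 1 gene differed within the same lung. There were 13 probe pairs, 12 of them with both probes tested, and in 6 of the 12 the group differences had opposite signs. These pairs are not independent, since the 4 GJB2 probes enter several of them. The GJB2 pairs of opposite sign all hold the probe at -0.028 ± 0.32. For ITGAV the signs differed at 0.0040 ± 0.15 and -0.095 ± 0.15, both small beside their standard errors. The median SD of the distance between the probes of a pair was 0.24. This is a spread between single lungs and cannot be set directly against a difference between group means. Among the member pairs that share 59 bases, the distance had an SD of 0.50 for TJP3, where 1 lung stood apart, 0.31 for TJP1 and 0.23 for GJB2. Among those that share no run of 15 or more, the SD was 0.071 for ITGAV, 0.087 for ITGB2, 0.18 for ITGB6 and 0.25, 0.27 and 0.30 for the GJB2 pairs, so the ranges overlap. Pairs with 59 shared bases among the genes found by name, described next, had SDs of 0.08 for GJA4, 0.07 for CLDN3 and 0.06 for ITGB5.

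**Figure D4:**
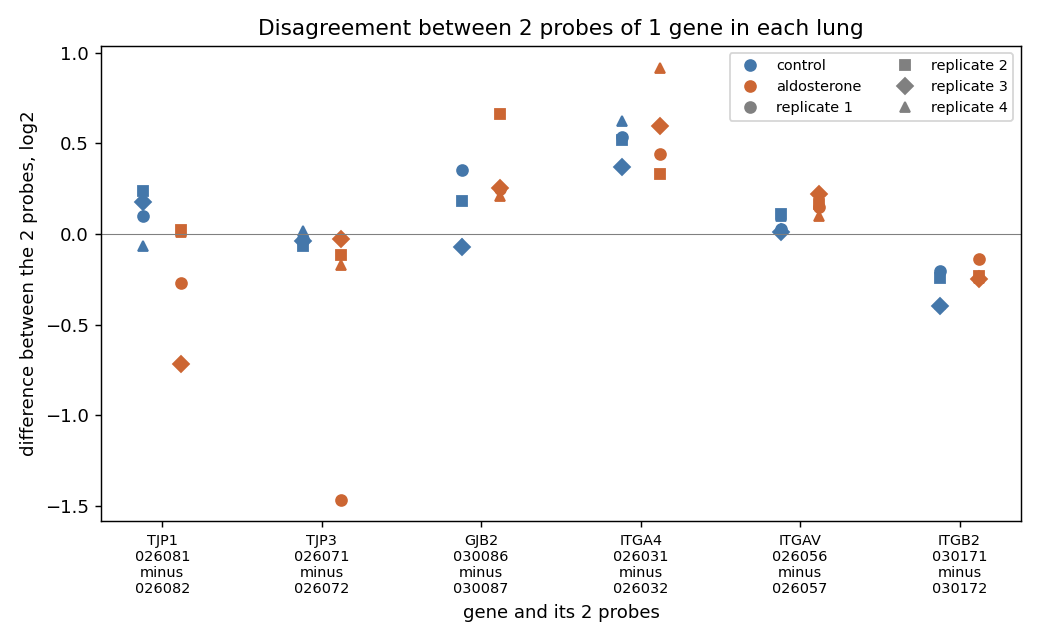
Distance between the log2 signals of 2 probes of the same gene (y axis, log2) in each lung, for 6 genes (x axis, with the last digits of both probe names). Blue is control, orange is aldosterone and shapes are replicate numbers; the TJP3 value of aldosterone replicate 1 lies at -1.47 and that of TJP1 in aldosterone replicate 3 at -0.72, away from the other lungs.

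The descriptions do not name every gene of these families. Of 9 further genes found by gene name, a rule added after the names were read, 8 were tested: 4 had higher and 4 lower means, none had an adjusted p under 0.05 in limma, and 1, GJA4, had an unadjusted p under 0.05, beside 1.87% of all probes. GJA4 is connexin 37, a gap junction protein of vascular endothelium. It read -0.68, -0.56, -0.72 and -0.56 in control lungs and -0.57, 0.17, -0.14 and -0.32 in aldosterone lungs. Each treated lung was higher than its same-numbered control, as for 7.67% of all probes, and the groups touched only through aldosterone replicate 1. The difference was 0.42 ± 0.17, with an unadjusted limma p of 0.0385 (0.0282 with the replicate block) and an adjusted p of 1, and its second probe gave 0.34 ± 0.15. The unadjusted limma p was 0.05 or more in 11 of 21 alternatives, among them median centring (0.0537), the authors' values (0.0739), the second probe (0.0522), both slide rows taken alone (0.221 and 0.11) and 6 of the 8 fits without 1 lung. The 4 endothelial markers that were measured had a mean level of -2.35 to -1.73 in control and -2.53 to -1.87 in aldosterone lungs. The value of -1.73 was that of control replicate 2, where TEK read -2.01 against -4.95 to -4.65 in the other controls. Singly, KDR differed by 0.18 ± 0.22, FLT1 by 0.030 ± 0.29, PECAM1 by 0.070 ± 0.17 and TEK by -0.40 ± 0.59. The part of these markers in the GJA4 value was not tested.

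**Figure D5:**
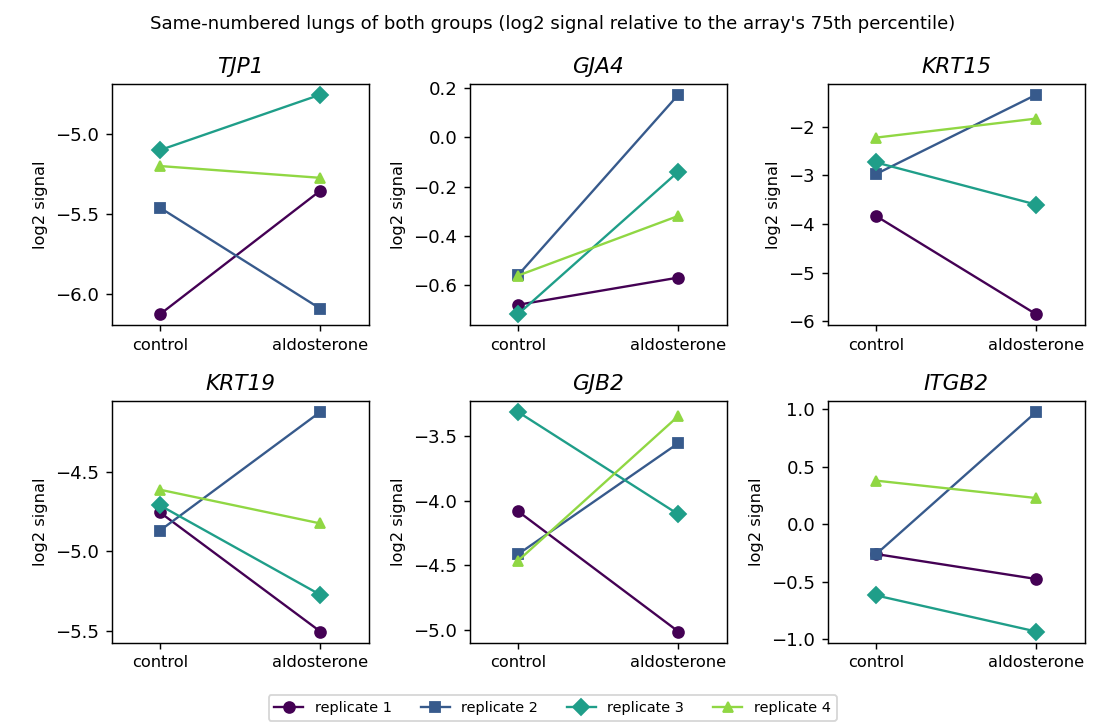
Log2 signal relative to the array's 75th percentile (y axis) in the control and the aldosterone lung of the same replicate number (x axis), for 6 genes. Each line joins same-numbered lungs; all 4 lines rise for GJA4, and for the other 5 genes some lines rise and some fall.

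Tight junction genes found by name were claudins 1, 2 and 3 and occludin. OCLN, the membrane-spanning protein occludin, was at -0.29, -0.32, -0.12 and -0.21 in control and -0.26, -0.42, -0.53 and -0.17 in aldosterone lungs, with a difference of -0.11 ± 0.13. CLDN3, a sealing claudin of alveolar epithelium, differed by 0.21 ± 0.22. CLDN1 gave 0.40 ± 0.38, a value that rests on aldosterone replicate 2 at -1.52, since the other treated lungs lay between -3.31 and -3.10, and without that lung it was -0.024. CLDN2, a pore-forming claudin, was not well above background on any array. Among the connexins, GJA1 (connexin 43) gave -0.43 ± 0.38 on one probe and 0.074 ± 0.15 on the other, and the first rests on control replicate 1 at -2.36 against -4.20 to -4.04 in the other controls. The connexin probe named CX32 gave -0.21 ± 0.50. The integrin subunits ITGA5 and ITGB5 gave -0.15 ± 0.37 and 0.28 ± 0.36.

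A list of 49 other genes of adhesion, cell polarity and their ligands had 12 on the array under these names, of which 10 were tested. The means of 7 were higher and those of 3 lower after aldosterone, with none at an adjusted or an unadjusted p under 0.05 in limma. The junctional adhesion molecule F11R differed by 0.077 ± 0.14, the endothelial adhesion molecule PECAM1 by 0.070 ± 0.17, and the mesenchymal filament gene VIM by 0.16 ± 0.14. VCAM1, the ligand of integrins with the alpha-4 subunit, gave -0.11 ± 0.29. Control replicate 4 stood apart for the leukocyte adhesion genes ICAM1, at 3.04 against 0.43 to 0.85 in the other controls, and SELP, at -0.48 against -4.43 to -3.90. The group differences of these genes were -0.45 ± 0.52 and -0.34 ± 0.77.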

How the data were processed

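The samples were 8 fetal sheep lungs, 4 infused with aldosterone and 4 vehicle-infused twins, each on its own 1-colour Agilent array made with 450 ng of RNA. Spot intensity in the deposited scanner files is linear and was background-subtracted with Agilent Feature Extraction 10.1.1.1 per the file headers. For 12762 spots the authors also deposited log2 values, equal to the log2 processed intensity less 1 constant per array (within 0.01 log2 units for all values), with a median of 0 in each column; it was used as an alternative. The sources used here do not give its rule for empty cells.

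From the intensity columns, the processed signal was put on the log2 scale and the 75th percentile of its array (10.23 to 10.73) subtracted, over 15208 non-control spots. Spots with outlier flags were left out, 74 values in all and none of a member; spots of 1 probe were averaged. Probes that 4 or more of the 8 arrays showed well above background were fitted with limma 3.58.1 in R 4.3.3 (lmFit and eBayes, two-sided), with Benjamini-Hochberg adjustment over 12168 probes, a threshold of 0.05 and the group as the only term. The fitting code was tested on simulated data. Among a member gene's tested probes found by description, that of the highest mean over all arrays stood for it; for the genes found by name alone the same was done over all their probes. Probe names came from the files and a RefSeq table of ARS-UI_Ramb_v3.0, used for names only.

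One member that met the rule is not reported here, and all member counts leave it out. The members and gene lists were chosen with earlier results of these data known. The genes given in full are, for each family, those with the smallest unadjusted p and any member under 0.05, here widened to all 12 tested genes; the 3 members with the largest and the 3 with the smallest control SD were named as well.

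The labels name twin sets but do not state that the replicate number marks them. After group means were removed, same-numbered lungs correlated at 0.446, 0.275, 0.28 and 0.538 across 12146 probes and other pairs at -0.449 to 0.204, which pairs the lungs under the 0.1 threshold set, although aldosterone 1 with control 2 (0.204) and aldosterone 3 with control 4 (0.11) exceeded it too. Same-numbered arrays also share a slide row. Alternatives were another background correction and normalization, other scalings, filters, array weights, the replicate block, slide row and leaving out each lung.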

Additional observations from a re-analysis of the deposited data

Results flagged for a closer look

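Over the 20 tested genes of these families, found by description or by name, 40 groups of 4 lungs were searched for a single lung far from the other 3, by the gap to its nearest neighbour over the range of the group (critical value 0.829). For independent, normally distributed values about 1 of 20 groups would pass this value, and 5 groups did. The genes share the same lungs, and the share over all probes was not computed. No excess in these genes can therefore be read from the count. ITGB1 in aldosterone replicate 1 was 2.29 against 1.62 to 1.66 in the other treated lungs (ratio 0.94), and control replicate 1 was also the highest of its group. ITGB6 in control replicate 4 was -3.73 against -2.79 to -2.61 (ratio 0.842). CIB1 in control replicate 4 was 2.11 against 2.21 to 2.22 (ratio 0.958), a gap of only 0.11 log2 units in a group that was otherwise almost identical. CLDN1 in aldosterone replicate 2 was -1.52 against -3.31 to -3.10 (ratio 0.884), and its second probe was also highest there, at -1.96. GJA1 in control replicate 1 was -2.36 against -4.20 to -4.04 (ratio 0.914), while its second probe read -4.34 in that lung.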

How the results depend on the processing

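Under all 20 alternatives run, limma called 0 probes of the array and 0 member probes at an adjusted p under 0.05. The count of member probes with an unadjusted p under 0.05 stayed at 0 on the higher side. On the lower side it ran from 0 to 1 over the fits that leave out 1 lung each (KRT19 without aldosterone replicate 2) and was 0 under every other alternative. The member median stayed between -0.13 and 0.098. GJA4 was 0.29 to 0.53, with unadjusted p from 0.0102 to 0.221 and no smaller adjusted p than 0.460. KRT19 kept a lower mean, from -0.46 to -0.0015, as did ITGA4, from -0.51 to -0.057. With the replicate block the member counts were 0 higher and 0 lower, while 539 of all probes, in place of 228, had an unadjusted p under 0.05; array weights gave 1282 and leaving out control replicate 3 gave 143.

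Of 400 comparisons of a named gene with an alternative other than another probe, 354 kept the direction and the side of the threshold and 46 turned the direction. Signal over background kept 4 of the 25 member probes out of the test. ITGAV was -0.059 with normexp, -0.035 with median centring, -0.037 with quantile normalization, -0.055 with the authors' values, -0.088 with array weights, -0.12 in the second slide row and -0.095 on its other probe. With normexp KRT15 was 0.067 and TJP1 -0.084, and with array weights ITGB2 was -0.054. In the first slide row CTNNBL1 was -0.015, GJB2 -0.036, ITGB6 0.040, CLDN3 -0.018 and ITGB5 -0.063; in the second ITGB2 was -0.23, CLDN1 -0.17 and ITGA5 0.22. Other probes gave -0.028 and -0.21 for GJB2, -0.25 for TJP1, -0.27 for TJP3 and 0.074 for GJA1. Leaving out 1 lung each gave ranges of -0.081 to 0.10 for ITGAV, -0.82 to 0.68 for KRT15, -0.16 to 0.40 for GJB2, -0.20 to 0.43 for ITGB2, -0.028 to 0.16 for CTNNBL1, -0.21 to 0.081 for ITGB1, -0.11 to 0.34 for TJP1, -0.38 to 0.10 for ITGB6, -0.41 to 0.068 for ITGA5, -0.024 to 0.57 for CLDN1, -0.60 to 0.13 for CX32, -0.0045 to 0.55 for ITGB5 and -0.60 to 0.012 for GJA1. The cause was not tested.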
